A study of Mus musculus with 14 samples.

Results

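The replication-dependent histone genes supply the core histones H2A, H2B, H3 and H4 and the linker histone H1 that package newly copied DNA. Members were all protein-coding genes whose GENCODE M21 symbol begins with Hist1h, Hist2h, Hist3h or Hist4h, each represented by its transcript with the highest mean RPKM. This gave 67 genes, of 14248 genes with a value in any library: 6 of H1, 18 of H2A, 18 of H2B, 12 of H3 and 13 of H4. RPKM is a read count divided by the length of the sequence and by the depth of the library.

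The data came from C57BL/6J mouse embryonic fibroblasts in 14 libraries, 7 of footprints protected by ribosomes (Ribo-seq, 25 to 35 nt) and 7 of fragmented RNA (RNA-seq, 40 to 60 nt). Cells were depleted by hairpin of METTL3, which methylates adenosine in mRNA, or of ABCF1, a ribosome-associated ATPase, each in 2 libraries per assay. A single library per assay came from cells given 250 nM Torin1, an inhibitor of the kinase mTOR, for 2 h. The controls carried a scrambled hairpin (Scram, 2 libraries per assay). Which cells received Torin1 (untreated or Scram), and if DMSO vehicle was added to the others, was not given in the sources used here. All libraries were made from total RNA after rRNA removal in the presence of cycloheximide at 100 µg/ml. By its title, the series concerns mRNA translation that does not need the cap-binding complex eIF4F.

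Histone mRNAs of this kind are made in S phase, lack introns and a poly(A) tail, and end in a stem-loop. The stem-loop binding protein (SLBP) holds that structure, guides the cut that forms the mRNA's end, and takes the place of the poly(A)-binding protein in translation and decay. Because many histone genes stand in clusters of near-identical copies, reads often fit more than 1 gene.

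Of the 67 members, 62 were listed in at least 1 library, 60 in RNA-seq and 58 in Ribo-seq. Hist1h2ao, Hist2h2aa2, Hist2h2ab, Hist1h2bh and Hist1h2bm were listed in none. Hist1h4n, Hist2h2aa1, Hist2h3c1 and Hist2h3c2 were listed in RNA-seq alone, and Hist1h1t and Hist1h4m in Ribo-seq alone. A filter on low values left 51 members tested in RNA-seq (4 of H1, 13 of H2A, 12 of H2B, 10 of H3 and 12 of H4) and 54 in Ribo-seq (5, 13, 15, 10 and 11 in the same order of families).

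The files imply a depth of 1764405 to 5155233 reads per Ribo-seq library and of 1197426 to 3802639 per RNA-seq library. The libraries formed 2 sets in both assays. Replicate 1 files list transcripts from 1 read up, while replicate 2 and Torin1 files list them from about 5 reads up, and an unlisted gene was set to 0. Over members, Ribo-seq libraries correlated at 0.90 to 0.98 within a set and 0.58 to 0.78 between sets (Pearson's r on log2 values), so each knockdown library was set against Scram of its own number and Torin1 against Scram replicate 2. Of 10 fibroblast markers 9 were listed (Pdgfra and Pdgfrb in replicate 1 libraries alone), Fap being the exception. Summed, they had Ribo-seq levels of 6856 and 9418 in METTL3 knockdown, 7793 and 9663 in ABCF1 knockdown, 4450.2 in Torin1 and 6722 and 7039 in Scram libraries. Summed epithelial markers ran from 78.3 in the Torin1 library to 266.7 in Ribo-seq, macrophage and blood markers from 5.3 to 26.6, and endothelial and male germ cell markers stayed at or below 2.25. Their part in the histone values was not tested.

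Each target was lower in its own knockdown libraries. Mettl3 had a median-scaled Ribo-seq RPKM of 2.58 and 4.57 in METTL3 knockdown libraries against 20.99 and 11.8 in Scram libraries. In RNA-seq it had 2.82 and 4.04 in METTL3 knockdown libraries against 9.73 and 5.20 in Scram libraries. Abcf1 had 20.2 and 45.03 in ABCF1 knockdown against 58.98 and 89.05 in Scram by Ribo-seq. In RNA-seq it had 13.85 and 25.2 in ABCF1 knockdown against 47.3 and 52.8 in Scram. The libraries did not overlap for either gene. Median scaling sets every library to a common median over the genes tested, and all levels below are on that scale.

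Most of the annotated transcripts share a 3' stem-loop, and the sequences below show how little it varied between families. A search of the transcript strand for a stem of 6 bases beginning with GG, a loop of 4 bases and the fully complementary stem found it after the stop codon of 46 of 67 members (68.7%). Within the last 120 bases it stood in 23 of 67 members (34.3%) and in 127 of 58725 other protein-coding transcripts (0.216%). Capitals mark stem and loop, and each line is DNA sense from GENCODE M21 on GRCm38.
Hist1h1e: ccaaaGGCTCTTTTCAGAGCCaccca
Hist3h2a: ccaaaGGCTCTTTTCAGAGCCaccca
Hist1h2bb: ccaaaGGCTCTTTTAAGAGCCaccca
Hist2h2ac: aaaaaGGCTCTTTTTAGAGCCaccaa
Hist1h3g: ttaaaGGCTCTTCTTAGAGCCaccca
Hist1h4d: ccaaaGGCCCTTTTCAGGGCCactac
Hist2h4: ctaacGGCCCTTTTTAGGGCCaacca
Hist4h4: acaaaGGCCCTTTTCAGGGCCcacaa
Hist1h4b: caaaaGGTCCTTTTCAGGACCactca

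The form in Hist1h1e was shared by 26 members of the H1, H2A, H2B and H3 families, and the form in Hist1h4d by 7 members, all of them H4 genes. Another 6 members of H1, H2B and H3 had the loop of Hist1h2bb, and the remaining 7 members carried 5 further forms. In 10 of the tested members more than 500 bases of annotated transcript followed the loop. These included Hist1h1d with 4884 bases, Hist4h4 with 2445, Hist3h2a with 1643, Hist2h4 with 1257 and Hist1h1e with 1153. Most members without a match had at most 2 annotated bases after the stop codon, so no stem-loop could be looked for there. In H1 and H4 these were Hist1h1b and Hist1h4k, and in H3 Hist1h3h and Hist1h3i. In H2A they were Hist1h2aa, Hist1h2af, Hist1h2ah, Hist1h2ai, Hist1h2ak, Hist1h2an and Hist2h2ab. In H2B they were Hist1h2ba, Hist1h2bl, Hist1h2bn, Hist1h2bq, Hist1h2br and Hist2h2bb. The remaining members without a match were Hist2h2be, with 2192 annotated bases after the stop codon, Hist1h2bc with 742, Hist1h1a with 48 and Hist2h3b with 37.

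Coding sequences decide which copies can be told apart. The 13 H4 genes encode 1 protein of 103 residues, the 12 H3 genes 2 proteins, 9 of the 18 H2A genes share 1 protein, 6 of the 18 H2B genes share another, and the 6 H1 proteins all differ. The first 60 coding bases of 5 H4 genes are shown because they differ at silent positions, which decide where a read of about 30 bases can be placed. Capitals mark bases that differ from Hist1h4d.
Hist1h4d: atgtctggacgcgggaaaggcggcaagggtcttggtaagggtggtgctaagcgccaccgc
Hist1h4h: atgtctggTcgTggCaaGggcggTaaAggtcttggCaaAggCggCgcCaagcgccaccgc
Hist1h4c: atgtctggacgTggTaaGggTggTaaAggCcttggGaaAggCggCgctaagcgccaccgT
Hist2h4: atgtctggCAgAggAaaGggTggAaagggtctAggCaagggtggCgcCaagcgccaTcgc
Hist4h4: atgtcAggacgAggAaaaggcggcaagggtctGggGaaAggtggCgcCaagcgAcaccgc

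Over the whole coding sequence of 312 bases, Hist1h4h differed from Hist1h4d at 19 bases, Hist1h4c at 23, Hist2h4 at 32 and Hist4h4 at 40. In the H2A family the range was wider, as the next lines show with capitals for bases that differ from Hist1h2ap.
Hist1h2ap: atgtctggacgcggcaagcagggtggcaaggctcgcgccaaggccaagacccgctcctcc
Hist1h2ao: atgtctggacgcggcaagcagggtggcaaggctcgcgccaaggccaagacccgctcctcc
Hist1h2ae: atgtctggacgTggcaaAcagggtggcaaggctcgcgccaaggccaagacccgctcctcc
Hist3h2a: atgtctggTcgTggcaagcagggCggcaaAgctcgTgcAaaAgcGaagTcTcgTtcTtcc

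Hist1h2ap and Hist1h2ao are identical over all 393 coding bases, Hist1h2ae differed from them at 6 and Hist3h2a at 45. Members were therefore divided by the share of their 30-base coding windows found in no other member. In 15 members this exceeded 50% (called distinct below), and in the other 52 it did not (called shared). The lowest distinct member was Hist1h2ba at 55.5% and the highest shared one Hist1h4d at 41.7%, while 13 members had no window of their own. The distinct members were all 6 H1 genes, Hist1h2aa, Hist2h2ab and Hist3h2a of H2A, Hist1h2ba, Hist2h2bb, Hist2h2be and Hist3h2ba of H2B, and Hist2h4 and Hist4h4 of H4. No H3 gene was distinct, and that family had a median of 9.2% of own windows, against 83.6% for H1. Searched against the whole annotated transcripts of all other genes, coding or not, Hist3h2a (0%), Hist2h2bb (40.1%) and Hist3h2ba (36.6%) fell under the division. It was chosen after the data had been seen. The authors' rule for reads with several positions was not given in the sources used here. Values of shared members are uncertain and may be split between copies.

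Histone mRNAs had far more ribosome footprints for their RNA-seq signal than most mRNAs. The ratio of Ribo-seq to RNA-seq level had a median of 40.7 over 52 members in Scram replicate 1 and 8.18 over 49 members in Scram replicate 2, against 2.96 and 2.72 over all genes listed in both assays. In every family the median ratio exceeded that of all genes in both replicates, from 22.2 (H1) to 77.2 (H2B) in replicate 1 and from 5.23 (H2A) to 9.33 (H4) in replicate 2. Ribo-seq values were per coding length and RNA-seq values per transcript length, and fragments of the 2 assays differ in size. Among the 39 and 37 members with transcripts of up to 1000 bases the medians were 31.8 and 7.85, and among the 13 and 12 longer ones 53.7 and 13.8. Fewer cells in S phase and less histone RNA per cell cannot be told apart in such bulk libraries.

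Hist2h2bb (chr3:96269752-96270132, GRCm38), a single-exon gene of the smaller cluster on that chromosome that encodes an H2B, had the highest Ribo-seq level of all members. It was at 17179 and 5568 in METTL3 knockdown, 16417 and 4191 in ABCF1 knockdown, 5413 in Torin1 and 17665 and 3441 in Scram libraries. This placed it at rank 2 of the genes tested in Scram replicate 1 and rank 27 in replicate 2. Its RNA-seq level was far steadier between sets, at 630.2 and 694.6 in METTL3 knockdown, 609.6 and 717.9 in ABCF1 knockdown, 637.2 in Torin1 and 572.1 and 671.2 in Scram libraries. It alone gave 55.5% and 69.0% of the summed H2B RNA-seq level in Scram.

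Of the H4 genes, Hist4h4 (chr6:136801553-136804415, minus strand) stood outside the clusters and had the highest mean Ribo-seq level in Scram. It had 3919 and 3602 in METTL3 knockdown, 5567 and 4012 in ABCF1 knockdown, 5032 in Torin1 and 4946 and 3118 in Scram libraries. Its RNA-seq levels were 18.97 and 53.7 in METTL3 knockdown, 18.65 and 57.5 in ABCF1 knockdown, 89.9 in Torin1 and 17.04 and 51.2 in Scram libraries, so its Ribo-seq to RNA-seq ratio in Scram was 290.3 and 60.8. Hist2h4 (chr3:96261682-96263311, minus strand) had ratios of 157.3 and 39.8, and Hist3h2a (chr11:58954685-58956830) 73.7 and 39.9. These 3 distinct genes lay above the members' median in both Scram replicates. In each of them over 1000 annotated bases follow the stem-loop, and RNA-seq values were divided by that whole length.

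The 4 H1 genes with the highest footprint level encode the somatic linker histones, which bind the DNA between nucleosomes. In Scram replicates 1 and 2, Hist1h1b (chr13:21779883-21780625) had Ribo-seq levels of 8322 and 1838, Hist1h1c (chr13:23738808-23740367) 3694 and 1070 and Hist1h1e (chr13:23620629-23622558, minus strand) 3616 and 986.4. Hist1h1d (chr13:23553262-23560686) had 3241 and 989.4. Hist1h1b led in both replicates, and the order of the other 3 differed between replicates.

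The other members named for their level, given next, were higher in Scram replicate 1 than in replicate 2. Of H2A, Hist1h2ap had Scram levels of 1311 and 70.8, Hist1h2ae 1229 and 264.7, Hist3h2a 1168 and 706.9 and Hist1h2ak 1068 and 284.2. Of H2B, Hist1h2bj had 8494 and 344.1, Hist1h2bg 7577 and 394.5 and Hist1h2bc 5203 and 514.0. Of H3, Hist1h3d had 3156 and 238.5, Hist1h3a 3022 and 258.9, Hist1h3f 2496 and 420.5 and Hist1h3e 2091 and 190.1, and of H4, Hist1h4d had 5243 and 1781 and Hist1h4h 3696 and 1081. Orders within H2A, H2B and H3 therefore did not hold across the replicates, whereas Hist4h4, Hist2h4 and Hist1h4d led H4 in both.

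**Figure D1:**
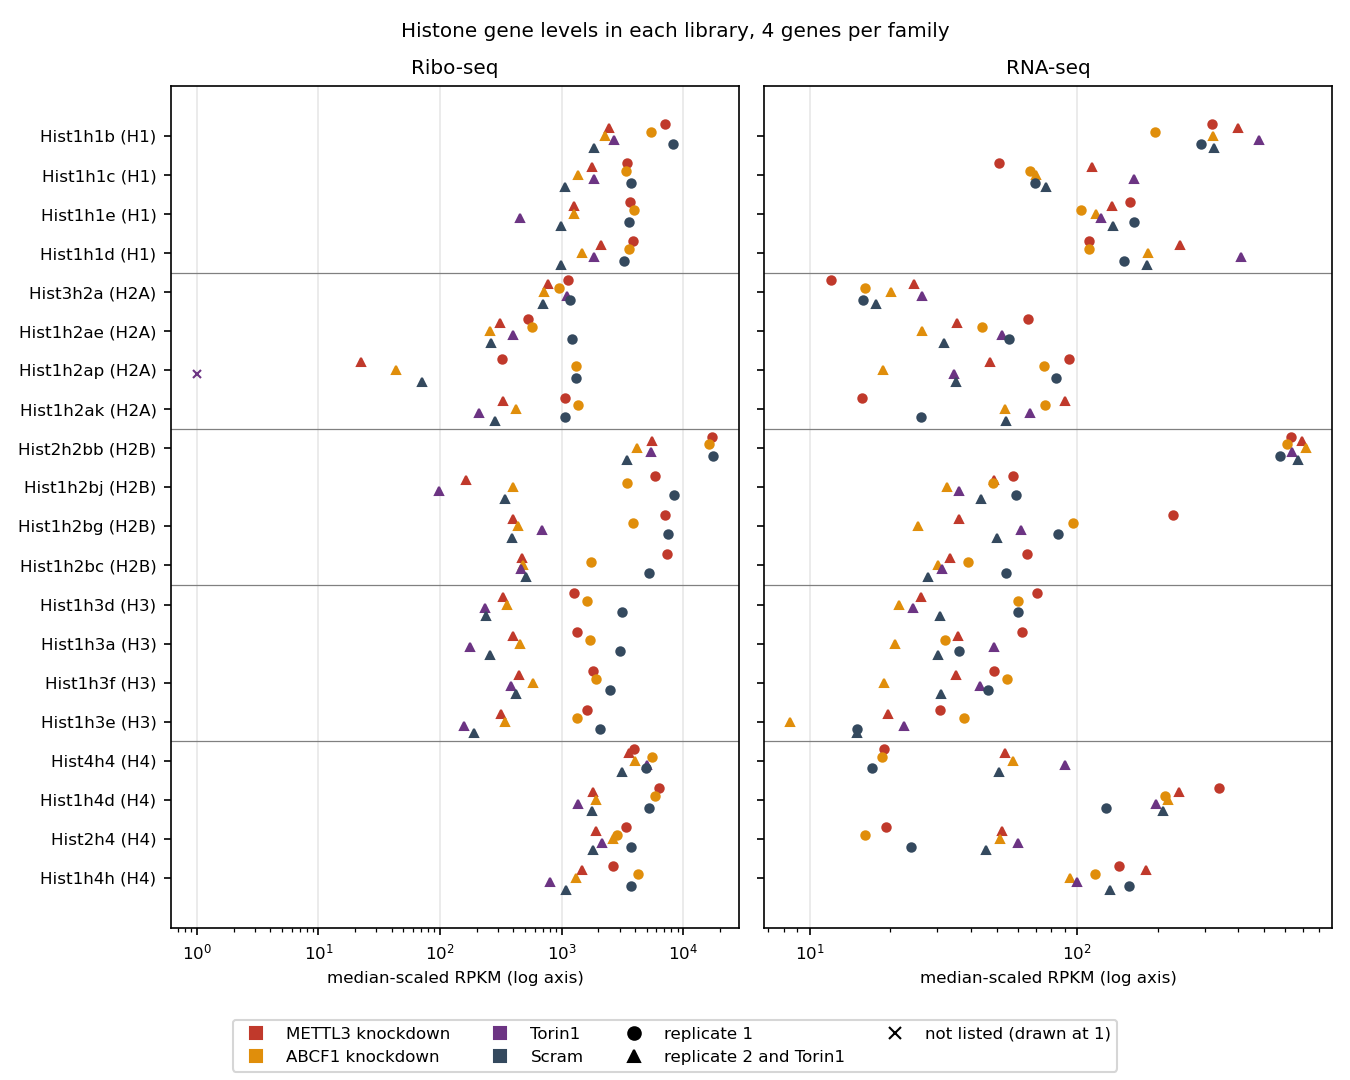
Median-scaled RPKM (log axis) of the 4 members per family with the highest Scram Ribo-seq level, in Ribo-seq (left) and RNA-seq (right); colours are groups, circles replicate 1 libraries, triangles replicate 2 and Torin1 libraries, and the cross marks Hist1h2ap, not listed in the Torin1 Ribo-seq library. Ribo-seq circles lie right of the triangles for most H2B and H3 genes, while RNA-seq levels of the 2 sets overlap more.

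The library sets differed in histone footprints far more than in histone RNA. Scram replicate 1 over Scram replicate 2 had a median of 4.48 in Ribo-seq over 54 members, 49 of them above 1, and 0.91 in RNA-seq over 50 members, 21 of them above 1. By family the Ribo-seq median was 3.45 for H1, 4.31 for H2A, 13.3 for H2B, 8.25 for H3 and 2.19 for H4. Distinct members had a median of 3.38 and shared ones 4.63, so the gap was present in both classes. Members took 4.03% and 1.51% of Ribo-seq reads in METTL3 knockdown, 3.85% and 1.52% in ABCF1 knockdown, 1.71% in Torin1 and 4.56% and 1.22% in Scram libraries. In RNA-seq the shares ran from 0.262% to 0.49% over all 7 libraries. Library set and replicate number cannot be told apart.

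**Figure D2:**
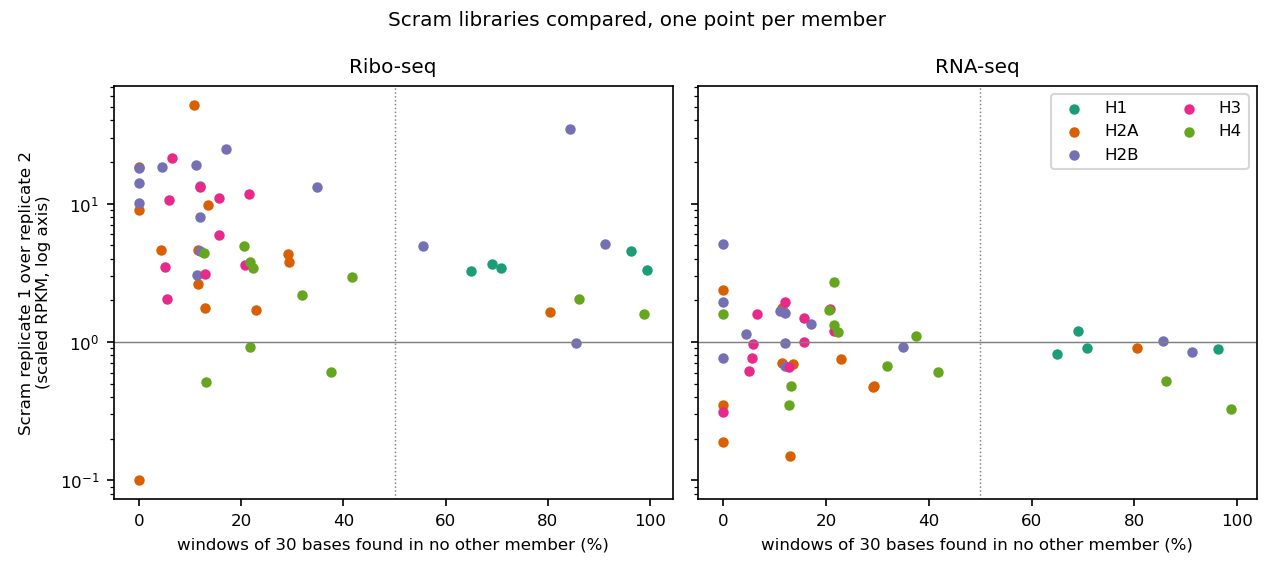
Each point is 1 member, with the share of its 30-base coding windows found in no other member (%) on the x axis and the ratio of its level in Scram replicate 1 to that in Scram replicate 2 on a log y axis; the dotted line is the division at 50%. Most Ribo-seq points (49 of 54) lie above 1 on either side of the division, and RNA-seq points lie around 1.

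Averaged over both replicates, RNA-seq levels of histone genes in METTL3 knockdown leaned above Scram in all families but H1, and no member was called. The members' median RNA-seq difference to Scram was 0.23 (log2, 51 members), against -0.01 over all genes. It was 0.18 without scaling and 0.22 with quantile normalization, where the median of all genes was -0.06 and 0.01. In both replicates 26 members were higher and 2 lower, where the background over all genes was 25.4% higher and 26.1% lower. The family medians were 0.03 for H1, 0.28 for H2A, 0.24 for H2B, 0.32 for H3 and 0.26 for H4, and that of H1 was -0.03 without scaling and -0.01 with quantile normalization. In replicates 1 and 2 the medians were -0.24 and 0.35 for H1, 0.23 and 0.17 for H2A and 0.46 and 0.025 for H2B. For H3 they were 0.66 and 0.20, and for H4 0.18 and 0.28. H1 was thus the lowest family in replicate 1 and the highest in replicate 2.

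Counted strictly, both METTL3 knockdown libraries lay above both Scram libraries in RNA-seq for 10 members: Hist1h2ab, Hist1h2ac, Hist1h2be, Hist1h3b, Hist1h3e, Hist1h3g, Hist1h4a, Hist1h4c, Hist1h4d and Hist1h4k. Both lay below for 1, Hist1h2ai, and over all genes 9.33% lay above and 9.7% below. All 11 are shared members, as were 43 of the 51 members tested. With limma, a term for the library set (the replicate block) and Benjamini-Hochberg adjustment, no gene of 9021 was called. There 386 genes, 7 of 51 members among them, had an unadjusted p under 0.05. Without the block no gene was called either, 63 genes (0.698%) had an unadjusted p under 0.05, and 1 of them was a member.

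That member, Hist1h2ai, which encodes an H2A, had RNA-seq levels of 2.42 and, as not listed, 0 in METTL3 knockdown and of 4.56 and 29.8 in Scram libraries. The difference was -2.82 (limma, unadjusted p = 0.0339, adjusted p = 1), but it rests on the unlisted value and is no measured fold. Hist1h4d (chr13:23581598-23582735), an H4 gene, had 338.2 and 240.7 in METTL3 knockdown, 213.3 and 218.3 in ABCF1 knockdown, 197.0 in Torin1 and 128.7 and 209.7 in Scram libraries. The METTL3 libraries did not overlap with Scram, and the difference was 0.79 (limma, unadjusted p = 0.0763, adjusted p = 1). Hist1h3b, an H3 gene, had 67.6 and 42.5 in METTL3 knockdown libraries against 22.4 and 36.3 in Scram, a difference of 0.89 (limma, unadjusted p = 0.0714, adjusted p = 1).

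The median RNA-seq difference in METTL3 knockdown was smaller in distinct members over both replicates, a gap that was not tested and was absent in replicate 2. The 8 distinct members tested had a median of 0.05, with -0.17 in replicate 1 and 0.24 in replicate 2, against 0.28 over 43 shared members, with 0.50 and 0.20. No distinct member had a mean difference outside -0.05 to 0.21, but replicates of opposite sign cancel in such a mean. In both replicates 3 distinct members were higher and 1 lower. The rest changed sign, among them Hist1h1c at -0.44 and 0.57. The median of distinct members was -0.01 without scaling and 0.02 with quantile normalization.

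In Ribo-seq, METTL3 knockdown showed no common direction over members. The median difference was -0.03 over 54 members, with -0.25 in replicate 1 and 0.21 in replicate 2, against 0.02 over all genes. In both replicates 13 members were higher and 14 lower, against 27.8% and 25.2% of all genes, both close to the members' shares. H2B differed from the other families in its counts, with 0 of 15 members higher and 8 lower in both replicates and a median of -0.32. These included many shared copies, and no test singles out the family. Both knockdown libraries lay above both Scram libraries for Hist1h2ab alone and below for none, against 12.1% and 10.3% of all genes. Scram replicate 1 lay above Scram replicate 2 in 49 of 54 members, with a median ratio of 4.48. Such a gap leaves little room for either order, so these counts say little about the members. Of 9534 genes tested limma called 0, and 243 genes (2.55%) but 0 members had an unadjusted p under 0.05. With the replicate block 1 gene was called, lower (0.0105%), and it was not a member. In that fit 1261 genes, 4 of 54 members among them, had an unadjusted p under 0.05.

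Hist1h2ab, an H2A gene, had a Ribo-seq level of 834.9 and 956.7 in METTL3 knockdown, 1199 and 791.5 in ABCF1 knockdown, 604.2 in Torin1 and 834.0 and 487.3 in Scram libraries. The difference between METTL3 knockdown and Scram was 0.49 (limma, unadjusted p = 0.297). The other members of lowest p were Hist1h1a at 0.79 (unadjusted p = 0.287) and Hist1h4i at -0.76 (unadjusted p = 0.401), each with an adjusted p of 1. Hist1h2ap had 325.5 and 22.3 in METTL3 knockdown libraries against 1311 and 70.8 in Scram, lower in both replicates. With a replicate block its difference was -1.81 ± 0.29 (SE; limma, unadjusted p = 0.000423, adjusted p = 0.123).

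Translational efficiency (TE, the log2 Ribo-seq difference minus the log2 RNA-seq difference) in METTL3 knockdown had a median of -0.37 over 55 members, against 0.04 over all genes. In both replicates 22 members were lower and 9 higher, where 23.6% and 29.2% of all genes were. The replicates differed, at -0.54 and -0.04. Shared members gave -0.52 and 12 distinct members 0.11, and both kept their sign without scaling and with quantile normalization. With the replicate block limma called 0 of 9428 genes for TE, and 378 genes, 7 of 55 members among them, had an unadjusted p under 0.05. Without the block limma called 0, and 46 genes (0.488%), 1 of them a member, had an unadjusted p under 0.05. That member was Hist3h2ba at 1.93 (unadjusted p = 0.0357), followed by Hist1h2ai at 2.78 and Hist1h3b at -1.15 (unadjusted p = 0.0571 and 0.256), all with an adjusted p of 1. Hist3h2ba had at most 6 RNA-seq reads in any library and was not listed in METTL3 knockdown RNA-seq, so its TE rests on near-empty RNA-seq values.

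ABCF1 knockdown gave members no common direction in RNA-seq. The median difference was -0.10 over 51 members, against -0.05 over all genes, and 11 members were higher and 14 lower in both replicates, where 21.8% and 29% of all genes were. The family medians were -0.25 for H1, 0.21 for H2A, -0.20 for H2B, -0.12 for H3 and -0.15 for H4, and kept their signs without scaling and with quantile normalization. Both ABCF1 libraries lay above both Scram libraries for 3 members (Hist1h2bk, Hist1h4d, Hist2h3b) and below for 4 (Hist1h1e, Hist1h2bb, Hist1h3h, Hist1h4h), against 8.74% and 11.6% of all genes. Limma called 0 of 9021 genes, with 79 genes (0.876%) and 0 members at an unadjusted p under 0.05. With the replicate block it also called 0, with 586 genes, 3 of 51 members among them, at an unadjusted p under 0.05.

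Hist1h2bb, an H2B gene, had RNA-seq levels of 42.5 and 42.4 in ABCF1 knockdown against 65.3 and 71.1 in Scram, a difference of -0.67 (limma, unadjusted p = 0.0852). Hist1h1e had 103.5 and 117.4 in ABCF1 knockdown against 162.8 and 136.0 in Scram, a difference of -0.43 (limma, unadjusted p = 0.15). Hist2h3b (chr3:96268654-96269141), an H3 gene, had 23.0 and 16.6 in ABCF1 knockdown against 11.0 and 14.4 in Scram, a difference of 0.59 (limma, unadjusted p = 0.11). The libraries of the groups did not overlap for these 3 genes, and each adjusted p was 1.

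In ABCF1 knockdown the members' median footprint difference had opposite signs in the 2 library sets. The median difference was 0.04 over 54 members, with -0.32 in replicate 1 and 0.43 in replicate 2, against 0.00 over all genes. In both replicates 16 members were higher and 5 lower, against 25.3% and 23% of all genes. The medians of H1, H2B and H3 changed sign between replicates. Those of H2A (0.017 and 0.405) and H4 (0.093 and 0.281) were above 0 in both. Both libraries lay above both Scram libraries for Hist1h4j and Hist3h2ba and below for none, against 10.8% and 8.1% of all genes. The gap between the Scram libraries limits these counts as in METTL3 knockdown, so they say little about the members. With the replicate block limma called 0 of 9534 genes, and 725 genes, 3 of 54 members among them, had an unadjusted p under 0.05. Without the block limma called 0, and 106 genes (1.11%), 1 of them a member, had an unadjusted p under 0.05.

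That member was Hist3h2ba, a distinct H2B gene of low level. It had 162.1 and 68.8 in ABCF1 knockdown, 38.9 and 46.0 in METTL3 knockdown, 37.9 in Torin1 and 43.2 and 43.4 in Scram libraries. Its difference in ABCF1 knockdown was 1.27 ± 0.47 (SE; limma, unadjusted p = 0.0457, adjusted p = 1). Hist1h4j had 580.5 and 684.8 in ABCF1 knockdown against 389.5 and 422.6 in Scram, a difference of 0.64, and Hist1h2ab had 0.61 (limma, unadjusted p = 0.223 and 0.204). For TE the members' median was 0.12, with -0.41 and 0.48 in the 2 replicates, against 0.07 over all genes. There 11 members were higher and 7 lower in both replicates, against 30.9% and 20.3% of all genes. With the replicate block limma called 0 of 9428 genes, with 348, 2 of 55 members among them, at an unadjusted p under 0.05. Without the block limma called 0, with 37 (0.392%) at an unadjusted p under 0.05. The 1 member among them was Hist3h2ba at 2.51 (unadjusted p = 0.0112), followed by Hist1h4j at 0.77 and Hist1h4c at 0.58 (unadjusted p = 0.289 and 0.314). Hist3h2ba was listed in only 3 RNA-seq libraries, at 2.92 and 2.86 in Scram, so here too its TE rests on near-empty RNA-seq values.

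Sums over a family also changed sign between sets in Ribo-seq, though in ABCF1 knockdown H2A and H4 were near 0 in replicate 1 (-0.025 and -0.007). All members together had a Ribo-seq level of 112507 and 35524 in METTL3 knockdown, 99230 and 35091 in ABCF1 knockdown, 32740 in Torin1 and 129537 and 27669 in Scram libraries. Relative to Scram the sum was -0.20 and 0.36 in METTL3 knockdown, -0.39 and 0.34 in ABCF1 knockdown and 0.24 in Torin1 (log2). In RNA-seq the sums were 4096 and 4033 in METTL3 knockdown, 3215 and 3316 in ABCF1 knockdown, 4372 in Torin1 and 3272 and 3489 in Scram libraries. The RNA-seq sum in both METTL3 knockdown libraries and in Torin1 lay above both Scram sums. With 2 libraries a group an exact permutation test cannot reach 0.05, so no p is given.

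**Figure D3:**
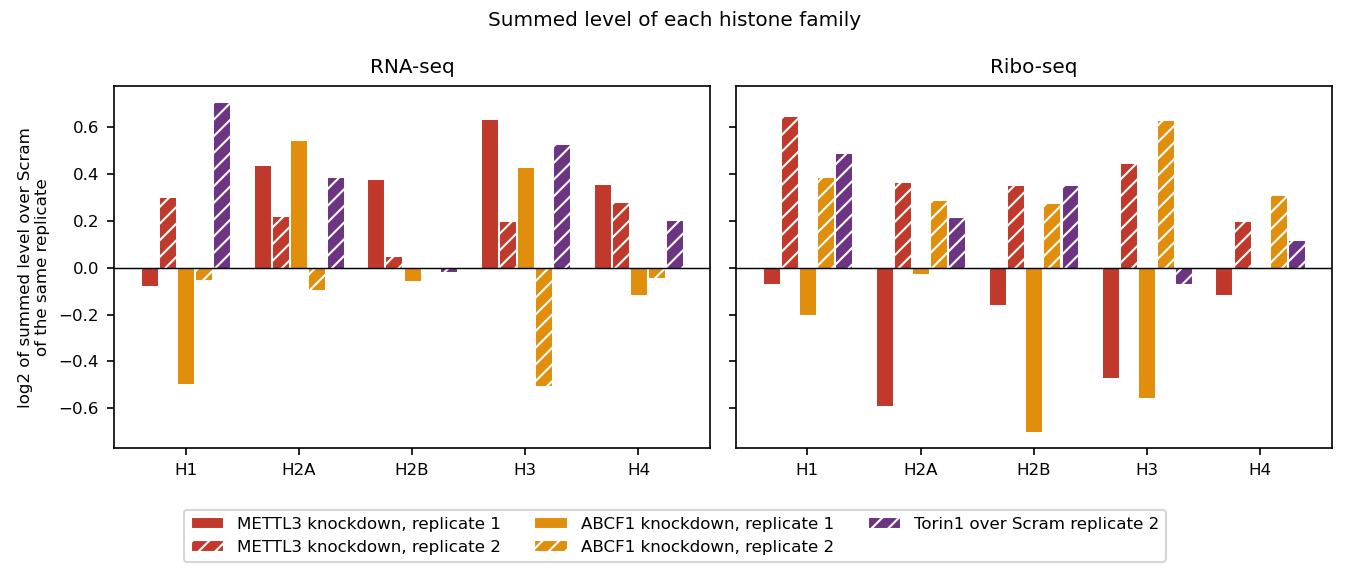
Log2 of the summed median-scaled level of each histone family over that of Scram of the same replicate, in RNA-seq (left) and Ribo-seq (right); bars are single libraries, hatched where they belong to the second set. In Ribo-seq all 5 families are below 0 in replicate 1 and above 0 in replicate 2 for both knockdowns. In ABCF1 knockdown replicate 1 the bars of H2A and H4 are near 0 (-0.025 and -0.007). In RNA-seq the highest Torin1 bar is that of H1 at 0.71.

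Under Torin1 the linker histone genes separated from each other in footprints. Against Scram replicate 2, Hist1h1b, Hist1h1c and Hist1h1d were higher in both assays and Hist1h1e was lower in both, and this held without scaling and with quantile normalization. Hist1h1e, which encodes one of the main somatic H1 proteins, had Ribo-seq levels of 3630.3 and 1259 in METTL3 knockdown, 3963 and 1267 in ABCF1 knockdown, 457.6 in Torin1 and 3616 and 986.4 in Scram libraries. The Torin1 library was the lowest of the 7 and stood at 46.4% of Scram replicate 2, from 669 reads against 2716. Its RNA-seq level in Torin1 lay inside the range of the other libraries, with 158.0 and 135.0 in METTL3 knockdown, 103.5 and 117.4 in ABCF1 knockdown, 123.1 in Torin1 and 162.8 and 136.0 in Scram libraries.

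The difference of Hist1h1e was -1.11 in Ribo-seq and -0.14 in RNA-seq against Scram replicate 2, and -0.97 for TE. The fit without a block, which sets Torin1 against the mean of both Scram libraries, gave -2.04 ± 1.22 (SE; limma, adjusted p = 0.891). With the replicate block it was -1.20 ± 0.27 (SE; limma, unadjusted p = 0.00308, adjusted p = 0.126). It was not called in either fit.

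Hist1h1d had Ribo-seq levels of 3838 and 2125 in METTL3 knockdown, 3578 and 1478 in ABCF1 knockdown, 1846 in Torin1 and 3241 and 989.4 in Scram libraries. Its RNA-seq levels were 110.8 and 242.0 in METTL3 knockdown, 110.5 and 184.5 in ABCF1 knockdown, 410.7 in Torin1 and 149.8 and 182.7 in Scram libraries. Torin1 gave the highest RNA-seq level of all 7 libraries, whereas its footprint level lay inside the range of the second set. The differences were 0.90 in Ribo-seq and 1.17 in RNA-seq.

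Hist1h1c had 1843 in Torin1 against 1070 in Scram replicate 2 by Ribo-seq, and 163.0 against 76.4 by RNA-seq. Hist1h1b had 2696 in Torin1 against 1838 in Scram replicate 2 by Ribo-seq, and 478.9 against 325.7 by RNA-seq. The differences were 0.78 and 1.08 for Hist1h1c and 0.55 and 0.56 for Hist1h1b. In the same set, METTL3 and ABCF1 knockdown libraries also lay above Scram in Ribo-seq for all 4 genes, with 1789 and 1355 for Hist1h1c and 2462 and 2263 for Hist1h1b. With the replicate block limma gave adjusted p of 0.435 for Hist1h1d, 0.51 for Hist1h1c and 0.749 for Hist1h1b.

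**Figure D4:**
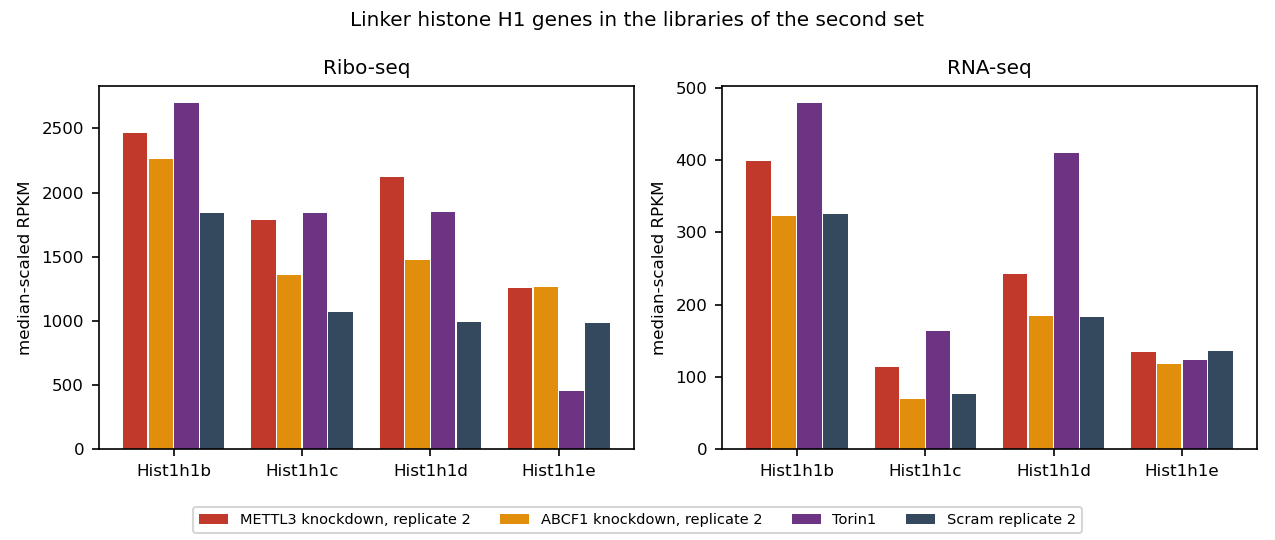
Median-scaled RPKM of 4 H1 genes in the libraries of the second set, Ribo-seq left and RNA-seq right, 1 bar per library with axes from 0. In Ribo-seq the Torin1 bar is above the Scram bar for Hist1h1b, Hist1h1c and Hist1h1d and is the lowest of its group for Hist1h1e.

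In Ribo-seq under Torin1, members with distinct coding sequence mostly lay above Scram and shared members mostly below, a gap for which no test was run. Over all 54 members the median difference to Scram replicate 2 was -0.13, against 0.00 over all genes, and it was 0.08 without scaling, where the median of all genes was 0.19, and 0.24 with quantile normalization. Of them 24 were higher and 30 lower, near the 49.3% and 50% of all genes. Distinct members had a median of 0.65, with 9 of 12 higher, and shared members -0.28, with 15 of 42 higher. The median of distinct members was 0.86 without scaling and 1.07 with quantile normalization, whereas that of shared ones was -0.07 and 0.16. The gap between the classes thus kept its direction, and the sign of the shared class did not.

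By gene, 7 of the 8 distinct members tested in both assays were higher in Torin1 than in Scram replicate 2 by Ribo-seq, Hist1h1e being the exception. Hist4h4 had 5032 in Torin1 against 3118 in Scram, a difference of 0.69. Hist2h2bb had 5413 against 3441, a difference of 0.65, and Hist3h2a 1103 against 706.9, a difference of 0.64. For Hist2h4 the values were 2143 in Torin1 and 1821 in Scram, a difference of 0.23. For these 4 genes the METTL3 and ABCF1 knockdown libraries of the set also lay above Scram replicate 2, which was the lowest of the 4 libraries.

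**Figure D5:**
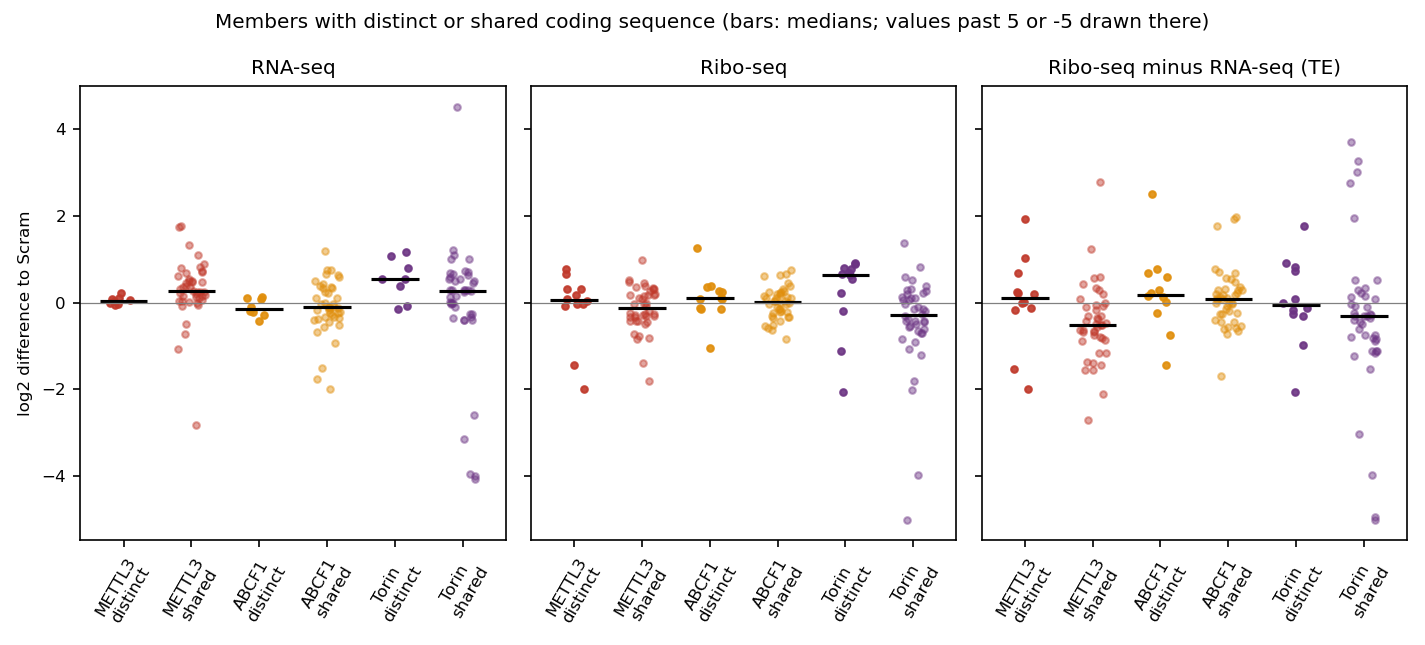
Log2 difference to Scram of each tested member, by group and by class of coding sequence, for RNA-seq, Ribo-seq and TE; each point is 1 gene, black bars are medians, and values past 5 or -5 are drawn there. In Ribo-seq the median of distinct members under Torin1 is at 0.65 and that of shared members at -0.28.

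RNA-seq under Torin1 gave members a median difference of 0.29, against -0.02 over all genes, with 32 of 51 higher and 19 lower, where 47.1% and 52.7% of all genes were. Without scaling it was 0.12 and with quantile normalization 0.27, while the median of all genes moved to -0.18 without scaling. H1 had the highest family median at 0.82, followed by H3 at 0.52 and H2A at 0.29. H2B was at 0.04 and H4 at 0.15, and without scaling these 2 were at -0.13 and -0.02. Distinct members had a median of 0.55 and shared ones 0.27. For TE the median was -0.29, against 0.03 over all genes, with 18 members higher and 37 lower, where 52.1% and 47.6% of all genes were. Without scaling it was 0.10, below the 0.39 of all genes, and with quantile normalization it was 0.26, above the 0.03 of all genes.

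No member was called under Torin1 without the replicate block (limma, 0 genes in any assay among those passing the filter on low values, and 54 genes for TE without that filter). At an unadjusted p under 0.05 stood 203 genes (2.25%) in RNA-seq with 4 members, 304 (3.19%) in Ribo-seq with 1 member, Hist1h2ap, and 253 (2.68%) for TE with 1 member. With the block limma called 126 of 9534 genes in Ribo-seq (1.32%), 115 of them lower (1.21%), and 3 were members, all lower and all shared. Hist1h2ap (chr13:21833026-21833507, minus strand), an H2A gene, had Ribo-seq levels of 325.5 and 22.3 in METTL3 knockdown, 1327 and 43.6 in ABCF1 knockdown, none listed in Torin1 and 1311 and 70.8 in Scram libraries. The 2 sets did not overlap. The listing minimum of 5 reads corresponds to a deposited RPKM of 7.21 for this gene in the Torin1 library, and Scram replicate 2 held 116 reads.

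Its blocked difference was -6.11 ± 0.37 (SE; limma, adjusted p = 0.00411), which rests on the value of 0 and is no measured fold. Its RNA-seq level was 34.7 in Torin1 and 83.6 and 35.2 in Scram libraries. Hist1h2an, another H2A gene, was likewise not listed in Torin1 and had 24 reads in Scram replicate 2 (limma with the block, adjusted p = 0.0145). Hist1h2ap has the same coding sequence as Hist1h2ao, for which no library holds a value.

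Hist2h3b was the called member with reads in every Ribo-seq library. It had 159.4 and 57.2 in METTL3 knockdown, 349.9 and 112.8 in ABCF1 knockdown, 19.8 in Torin1 and 167.3 and 82.2 in Scram libraries. The Torin1 library held 18 reads and Scram replicate 2 held 141, and the Torin1 level was the lowest of all 7. With the block it fell by 1.83 ± 0.30 on the log2 scale (SE; limma, adjusted p = 0.0399), and without it the difference was -2.51 (limma, unadjusted p = 0.0571, adjusted p = 0.891). Its RNA-seq level was higher in Torin1 than in Scram, with 30.02 in Torin1 and 11.01 and 14.4 in Scram libraries.

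For TE the block called 52 of 9428 genes (0.552%), 29 of them lower (0.308%), and 3 were members: Hist1h2ap, Hist1h2bl and Hist2h3b. Hist2h3b fell by 3.07 on the log2 scale (limma with the block, adjusted p = 0.0368). In RNA-seq the block called 10 of 9021 genes (0.111%), 1 of them higher (0.0111%), which was Hist1h2bl (chr13:21715763-21716143, minus strand), an H2B gene. It rested on 8 reads in Torin1 and no listed value in Scram replicate 2 (limma with the block, adjusted p = 0.0386). Without the block the RNA-seq members of lowest p were Hist1h2bq at -5.21, not listed in Torin1, Hist1h2ab at 1.31, Hist2h3b at 1.19 and Hist1h2ac at 0.91 (limma, unadjusted p = 0.00507, 0.0116, 0.024 and 0.0366, each adjusted p at or above 0.994). In Ribo-seq they were Hist1h2ap at -8.26, Hist2h3b at -2.51 and Hist1h2an at -6.77, and the values of Hist1h2ap and Hist1h2an rest on 0 in Torin1. In all assays this fit sets Torin1 against the mean of both Scram libraries, so its values also hold the gap between sets. Against Scram replicate 2 the Ribo-seq differences of these members were -6.165, -2.003 and -3.967. For TE the members of lowest p were Hist2h3b at -3.69, Hist1h2ab at -1.37 and Hist1h2ap at -7.63.

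Genes that help to make, process or deposit the histones, or that act beside them in S phase, gave few calls. Without the block limma called none of the tested genes of the 5 lists in any comparison. With it, Npm1, a histone-binding nucleolar chaperone, was lower in Torin1 Ribo-seq (579.8 against 1876 in Scram replicate 2, adjusted p = 0.0495), 1 of 14 chaperone genes tested. Gins1, a subunit of the replicative helicase complex, was not listed in Torin1 RNA-seq and was called lower there (limma with the block, adjusted p = 0.0386), 1 of 21 S phase genes, and called higher for TE (adjusted p = 0.0217). Of the marker genes, Krt18, a keratin, was called lower in Torin1 Ribo-seq, at 60.7 against 185.1 in Scram replicate 2 (limma with the block, adjusted p = 0.0434).

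Slbp, the stem-loop binding protein, had Ribo-seq levels of 3.25 and 309.6 in METTL3 knockdown, 7.01 and 196.0 in ABCF1 knockdown, 209.4 in Torin1 and 8.30 and 192.5 in Scram libraries. The kept transcript was low in all replicate 1 libraries, and the 3 libraries of the second set other than Scram lay above it. Npat, the coactivator of histone gene transcription, had 6.21 and 4.58 in METTL3 knockdown, 6.95 and 5.99 in ABCF1 knockdown, 6.04 in Torin1 and 8.52 and 4.55 in Scram libraries. Of 12 transcription and 3' processing genes tested in Ribo-seq, 4 were higher and 8 lower in Torin1 than in Scram replicate 2, with a median of -0.13. Of 7 translation and decay genes 6 were higher, with a median of 0.27. Over all genes 49.3% were higher and 50% lower.

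Histone genes listed as replication-independent, most of which give polyadenylated mRNAs outside S phase as well, had a Ribo-seq median of -0.29 under Torin1. Of these 11 genes 8 were lower than in Scram replicate 2, against 50% of all genes. H2afx, whose mRNA is also made in a form ending in a stem-loop, had 2259 and 2115 in METTL3 knockdown, 3167 and 1970 in ABCF1 knockdown, 1342 in Torin1 and 2295 and 1645 in Scram libraries. H2afz had 1673 in Torin1 and 1142 and 3074 in Scram libraries, and H3f3b 3391 in Torin1 and 1400.2 and 2942 in Scram libraries. H1f0, the linker histone of slowly dividing cells, had 754.7 in Torin1 against 593.4 and 388.4 in Scram, above both (limma with the block, adjusted p = 0.194).

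S phase genes are active at the time when histone mRNA is made. In RNA-seq of METTL3 knockdown 13 of 21 were higher and 1 lower in both replicates, against 25.4% and 26.1% of all genes. The median was 0.11, while the corresponding median was -0.18 in ABCF1 knockdown and -0.07 in Torin1. In Ribo-seq under Torin1, 14 were higher and 7 lower, against 49.3% and 50% of all genes, with a median of 0.21. Pcna, the sliding clamp of DNA replication, had Ribo-seq levels of 98.8 and 56.3 in METTL3 knockdown, 101.2 and 82.5 in ABCF1 knockdown, 93.6 in Torin1 and 171.5 and 105.2 in Scram libraries. Its footprint level was thus lower in every library than in the Scram library it was set against, though not called. In RNA-seq METTL3 knockdown replicate 1 (74.1 against 71.9) and Torin1 (20.0 against 18.7) lay above Scram, and the other libraries below. Its part in the histone values was not tested.

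The list genes of lowest unadjusted p in Ribo-seq are given as values (limma without the block, log2 differences to the mean of both Scram libraries). For Torin1 these values also hold the gap between sets. In METTL3 knockdown they were Ncbp1 at -0.53 and Lsm10 at 0.48, Ctif at 0.22 and Eri1 at -0.06, Rbbp7 at -0.80 and Nap1l4 at -0.48, H2afy2 at -0.72 and H2afy at -0.54, and Pcna at -0.84 and E2f1 at 0.46. In ABCF1 knockdown they were Ncbp1 at -0.25 and Sympk at 0.20, Tut4 at 0.39 and Tut7 at -0.37, Nasp at -0.46 and Npm1 at -0.51, H1fx at 0.71 and H2afx at 0.36, and Ccne1 at -0.74 and Tk1 at -0.63. In Torin1 they were Ncbp1 at -0.77 and Ncbp2 at -1.07, Eri1 at 0.47 and Tut7 at 0.66, Rbbp4 at -0.98 and Nap1l4 at -0.64, H2afy at -0.86 and H1fx at 0.91, and Ccne1 at -1.79 and Rrm2 at -1.08. Ncbp1, a subunit of the nuclear cap-binding complex, was lower in all 3 comparisons, which share their Scram libraries. Each adjusted p was at or above 0.891.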

How the data were processed

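Per the submitters' processing notes the authors used cutadapt, Bowtie and the build GRCm38, and they deposited RPKM per Ensembl transcript. Their versions, annotation and rule for multiply mapped reads were not given in the sources used here. RPKM times coding length (Ribo-seq) or transcript length (RNA-seq) gave whole reads within 0.02 for 98.2% to 98.9% and 83.5% to 90.7% of values, which sets the depth. Of 22453 transcripts 22356 matched GENCODE M21. Libraries were scaled to a common median, and log2(RPKM + 1) was fitted with limma 3.58.1 in R 4.3.3 for genes listed in at least 0.5 of libraries with a mean RPKM of at least 1. Log2 differences on that scale understate changes of low genes. All 7 libraries of an assay shared 1 estimate of the spread (3 residual degrees of freedom), and the lone Torin1 library was assumed to vary like the others. TE was an interaction contrast over 14 libraries (6 degrees of freedom). Adjusted p values are Benjamini-Hochberg over all genes, called under 0.05. The main design had no replicate block. Deviations of replicate 1 libraries from their group means correlated at 0.82 to 0.88 (RNA-seq) or 0.91 to 0.94 (Ribo-seq), so the numbers in the labels pair the samples. Blocked values are given where they change a call, and blocked counts of genes by unadjusted p are given for the knockdowns. Torin1 libraries took the block of replicate 2, whose listing minimum they share. No source says that replicates came from separate cultures, and p values then reflect only the variation among these libraries. The fit was also run on simulated data with independent noise and no library sets. That run cannot show how the fit performs with the sets seen here, and its outcome was not used. Members and lists were chosen with earlier results of these data known. Named genes are the 4 members per family of highest Scram Ribo-seq level, called members, the 3 members of lowest p per comparison, called list genes and the 2 list genes of lowest p (here for Ribo-seq), and fixed examples.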

Additional observations from a re-analysis of the deposited data

How the results depend on the processing

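Members' medians (log2 difference to Scram) moved by more than the SD of the replicates' medians (for Torin1, the mean SD of both knockdowns) or changed sign in these cases. In RNA-seq, METTL3 knockdown gave 0.23, and 0.18 without scaling, 0.17 without the filter on low values and 0.05 in distinct members. Torin1 gave 0.29, and 0.12, 0.15 and 0.55 in the same settings. In Ribo-seq, Torin1 gave -0.13, but 0.08 without scaling, 0.24 with quantile normalization, -1.27 against both Scram libraries and 0.65 in distinct members, and METTL3 knockdown -0.03 but 0.06 in distinct members. For TE, METTL3 knockdown gave -0.37 and 0.11 in distinct members, and Torin1 gave -0.29, 0.10 without scaling, 0.26 with quantile normalization and -1.37 against both Scram libraries. Without scaling the medians of all genes moved the same way. In RNA-seq they went from -0.01 to -0.06 (METTL3) and from -0.02 to -0.18 (Torin1). Under Torin1 they went from 0.00 to 0.19 in Ribo-seq and from 0.03 to 0.39 for TE. With quantile normalization these last 2 were 0.04 and 0.03. With the replicate block, which follows the pairing of libraries, limma called 10 genes in Torin1 RNA-seq, 1 in METTL3 Ribo-seq, 126 in Torin1 Ribo-seq and 52 in Torin1 TE, against 0 in each without the block. Without the block and without the filter on low values it called 54 in Torin1 TE. The block changed no other call. Leaving out 1 library at a time called 0 genes and gave medians of 0.20 to 0.25 (METTL3), -0.16 to 0.06 (ABCF1) and 0.28 to 0.48 (Torin1) in RNA-seq. In Ribo-seq the ranges were -0.25 to 0.21, -0.31 to 0.43 and -2.03 to -0.14, and for TE -0.54 to -0.01, -0.43 to 0.57 and -2.30 to -0.26. The ends at -2.03 and -2.30 are without Ribo-seq Scram replicate 2, when Torin1 is set against replicate 1, and that at -0.01 is without a replicate 1 library of METTL3 knockdown or Scram. The division into distinct and shared members was chosen after seeing the data, and 40-base windows also gave 15 distinct members, while windows found in no other gene gave 12. The causes were not tested. Depth limits members of few reads, and Torin1 has 1 library per assay.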
